A study of Homo sapiens with 12 samples.

Results

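The response of SW480 cells to folic acid (FA) was set against that of HT-29 cells, cluster by cluster, over the transcript clusters that carry a gene symbol in the platform table. These were 25324 of the 67528 clusters of the Human Transcriptome Array, 23781 of them with exactly 1 symbol and 1543 with several. The FA effect in a line was the mean log2 signal of its FA-supplemented arrays minus that of its untreated arrays. The line difference was the SW480 effect minus the HT-29 effect, so that a value of 1 on this log2 scale is a doubling. No measured value was used to choose the clusters.

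The 12 arrays formed 4 groups of 3: SW480 at 10000 ng/mL FA, SW480 at 0 ng/mL, HT-29 at 10000 ng/mL FA and HT-29 at 0 ng/mL, each harvested after 72 h. The untreated cells were kept in an FA-free medium. HT-29 and SW480 are established human colorectal adenocarcinoma lines, so a difference between them is one between 1 line and 1 other. FA was dissolved in NaOH and the untreated cells had no additions, so FA and its solvent cannot be told apart on these arrays. The replicates are labelled as biological, and the study's methods describe replicate seeding in well plates. Neither states that the arrayed replicates came from independent cultures. A p-value therefore reflects variation among these 12 samples, which may be technical.

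Folate carries the one-carbon units with which cells build purines and thymidylate and regenerate methionine, the precursor of the methyl donor S-adenosylmethionine. HT-29 is known as an epithelial, mucus-forming line and SW480 as a line with mesenchymal traits, and they differ in the oncogenes that drive them and in the methylation of their CpG islands. A line difference asks whether the same supplement moved a gene differently in these backgrounds.

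Untreated HT-29 replicate 3 stood apart from all other arrays. Its median log2 signal was 4.75, against 4.30 to 4.58 on the other 11, its SD over clusters was 1.86, against 2.17 to 2.29, and it correlated with the remaining HT-29 arrays at 0.944 to 0.954. As this array enters every HT-29 effect, the main results are given with and without it. The 9 colon epithelial markers fitted the labels only in part. KRT8 and EPCAM, keratin and adhesion genes of epithelia, averaged 16.77 and 12.68 in SW480 with FA and 17.15 and 14.33 in HT-29 with FA. In the same order of lines, KRT18 (15.73 and 15.54) and KRT19 (13.38 and 11.39) were high in both. CDH1 (7.71 and 13.47), VIL1 (5.58 and 8.05) and LGALS4 (3.86 and 9.92) were lower in SW480. CDX2 (5.30 and 4.55) and CDH17 (3.86 and 4.52) were low in both. Vimentin (VIM), a mesenchymal filament, was at 9.62 in SW480 with FA and at 3.62 in HT-29 with FA. Of the 5 leukocyte markers measured, PTPRC, CD3E and ITGAM had group means of at most 4.31, while CD68 was at 6.15 to 7.96 and LYZ, the lysozyme gene, at 18.77 in HT-29 with FA and 5.08 in SW480 with FA. The 4 endothelial markers were at most 4.49, and the 6 fibroblast markers other than VIM at most 5.03 (COL1A1 in untreated SW480).

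No cluster passed an adjusted p of 0.05 for the line difference, with limma and Benjamini-Hochberg adjustment over all clusters (0% of the 67528; lowest adjusted p = 0.576). At an unadjusted p under 0.05 stood 679 of the 25324 clusters with a symbol. The share of all clusters at this p is not given here, so the count is a description. The fold and p criteria of the study's methods were an unadjusted p of at most 0.05 and at least a 1.5-fold difference. They were met by 287 clusters with a symbol (1.13%). Of these, 118 were higher in SW480 relative to HT-29 and 169 were lower, while over all clusters 0.889% met the criteria on the higher side and 0.637% on the lower side. With each array centred on its median the split was 67 higher and 184 lower. The line differences given for single genes in this fit are therefore measurements without a call. In bulk RNA, a lower share of cells with a transcript and less of it per cell cannot be told apart.

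Without untreated HT-29 replicate 3 there was again no call (0% of the clusters, lowest adjusted p = 0.422). An unadjusted p under 0.05 was then found for 1368 clusters with a symbol, again a description without the share of all clusters. In this fit 353 clusters with a symbol met the criteria, of which 229 were higher and 124 lower, beside 1.59% and 0.641% of all clusters. Centring the 11 arrays gave 296 higher and 125 lower, and a second quantile normalization 185 higher and 222 lower, so the predominance of one direction depends on the scaling. Both fits shared 153 clusters, 72 higher and 81 lower, which is 53.3% of the 12-array set and 43.3% of the 11-array set (0.894% of all clusters met both). The single symbols among them number 136 clusters, 63 higher and 73 lower.

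Other settings of the 12-array fit gave 0 to 12 calls. Estimated array weights, which gave untreated HT-29 replicate 3 a weight of 0.0333 and replicate 1 of that group 14.8, called 12 clusters with a symbol (0.0578% of all clusters), although the estimation stopped before it converged. Among them were MIR3682, the pseudogenes YBX3P1, SBDSP1 and CHORDC1P4, the histone demethylase KDM6B and the troponin gene TNNC1. Without untreated SW480 replicate 1, only CCL2 was called (-2.67 ± 0.19 SE, adjusted p = 0.0274; 0.00148% of all clusters).

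The FA effects themselves were small and hardly related between the lines. Over the 25324 clusters their SD was 0.18 in SW480 and 0.25 in HT-29, and 0.14 in HT-29 without replicate 3 of the untreated group. Across genes, which are not independent replicates and were normalized together, Pearson's r of the SW480 effects with the HT-29 effects was 0.16, and -0.06 without that array. In the separate lines, 1 cluster with a symbol was called in SW480 (0.00592% of all clusters) and 0 in HT-29 (0%). With array weights these counts were 6 in SW480 and 1322 in HT-29 (7.1% of all clusters). Leaving out untreated HT-29 replicate 3 gave 0 in HT-29. The HT-29 count thus depends on the estimated weights, which also gave untreated HT-29 replicate 1 a weight of 14.8. Which part of the weighting gave that count was not tested. The 1 in SW480 is annotated to both SAA2 and RNA5SP333 and is described with the chemokines.

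**Figure D1:**
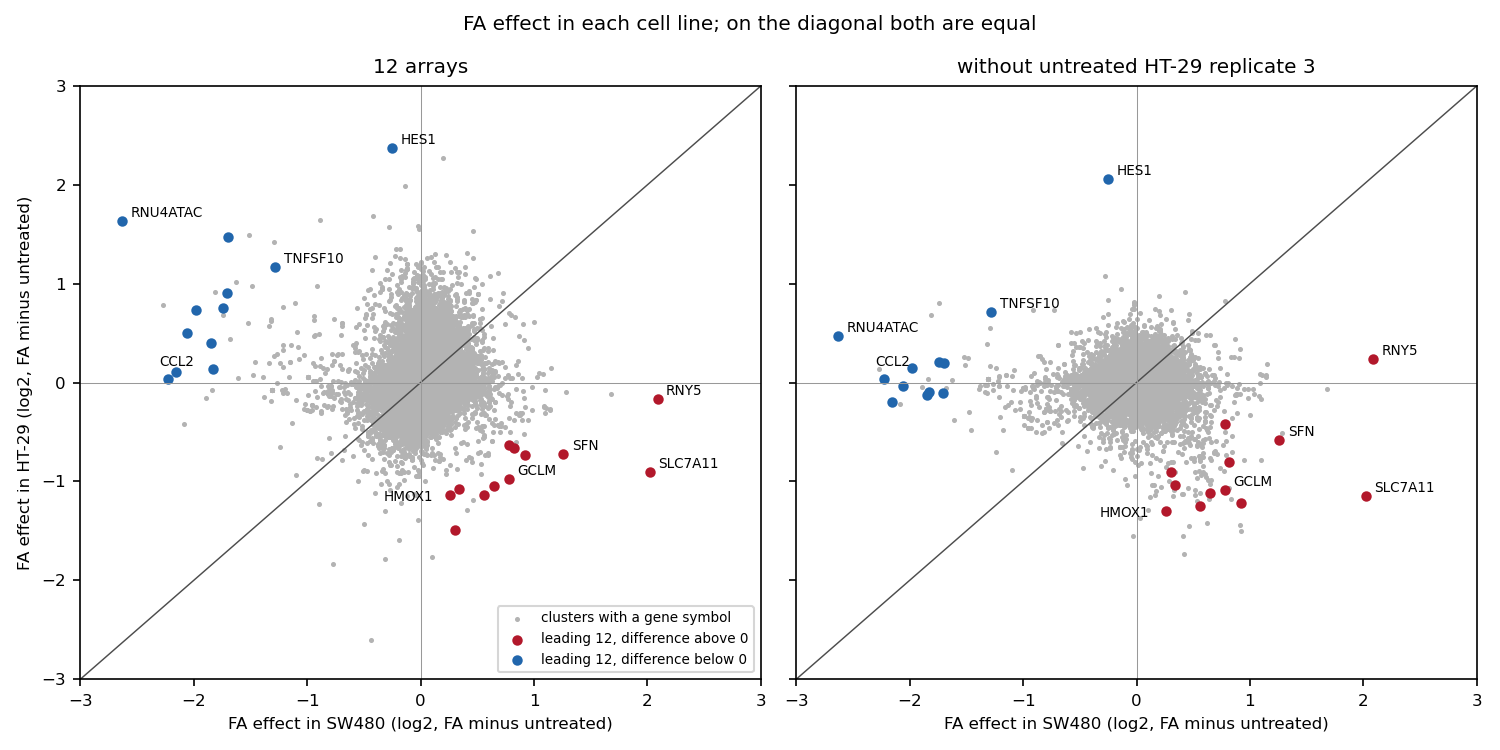
Each grey point is a cluster with a gene symbol, at its FA effect in SW480 (x axis) and in HT-29 (y axis), both in log2 units, with 12 arrays (left) and without untreated HT-29 replicate 3 (right). Red and blue points are the 12 leading clusters on each side of the diagonal, and the grey cloud is narrower along the y axis in the right panel, with an SD of 0.14 against 0.25 in the left.

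Among the 153 clusters that met the criteria in both fits, 129 had effects of opposite sign in the lines (117 without untreated HT-29 replicate 3). Choosing clusters by a large difference between the effects favours opposite signs, so this count is a description. An effect of at least 1.5-fold in SW480 beside a smaller one in HT-29 was the commonest make-up (69 clusters, and 77 without the array), followed by effects under 1.5-fold in both lines (39, and 47 without the array). A large effect in HT-29 alone was found in 27 (19 without the array), and both effects reached 1.5-fold in 18 (10 without the array). A stricter reading takes only the arrays: in 37 clusters with a symbol the FA arrays of both lines lay wholly outside the untreated arrays in opposite directions (0.146%, against 0.173% of all clusters), and in 44 in the same direction (0.174%, against 0.27% of all clusters). The opposite pattern was thus no more frequent than the shared one. Taken by line, FA and untreated arrays were apart in 1747 of the 25324 clusters in SW480 and in 911 in HT-29. For the single lines the shares of all clusters are not given, so these counts cannot be judged as high or low. Clusters named for a large line difference tend to be apart through that choice, so being apart is a description. Of the 37, 12 also met the criteria in both fits, which 0.077% of all clusters did.

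Values above 0 prevailed among genes of cystine import and glutathione synthesis and other targets of NRF2, the transcription factor that answers oxidants and electrophiles by binding antioxidant response elements. Of 32 measured genes of this list, 24 had a line difference above 0 and 5 met the criteria, all higher, with a median of 0.14 (0.02 over all clusters with a symbol). Without untreated HT-29 replicate 3 these numbers were 29, 6 and 0.28 (-0.01 over all clusters with a symbol). The 5 genes were SLC7A11, GCLM, TXNRD1, HMOX1 and GSR, and without the array GCLC and NQO1 took the place of GSR.

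SLC7A11, the cystine-glutamate exchanger of the cell membrane, read 8.60, 9.37 and 8.82 on the SW480 FA arrays and 7.73, 6.55 and 6.45 on the untreated SW480 arrays, against 14.22, 12.25 and 13.40 on the HT-29 FA arrays and 14.91, 13.97 and 13.71 on the untreated HT-29 arrays (log2 signal, replicates 1 to 3). In SW480 the groups did not overlap, with FA on the high side. In HT-29 they did, and 2 of the 3 FA arrays lay below all untreated ones. Its line difference was 2.93 ± 0.76 (SE, unadjusted p = 0.00336, adjusted p = 0.939), made of 2.02 in SW480 and -0.91 in HT-29, and 3.17 ± 0.83 without untreated HT-29 replicate 3. It is a gene far more abundant in HT-29 than in SW480 under both conditions.

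GCLM, the modifier subunit of glutamate-cysteine ligase, which makes the precursor of glutathione, read 9.89, 10.25 and 9.94 on the SW480 FA arrays and 9.31, 9.29 and 9.14 on the untreated ones, against 12.05, 10.11 and 11.70 with FA and 12.68, 12.08 and 12.03 without in HT-29. Again the SW480 groups were apart, and in HT-29 a single untreated value, 12.03, was below the highest FA value. This gave a line difference of 1.76 ± 0.59 (unadjusted p = 0.0147). TXNRD1, thioredoxin reductase, read 9.28, 9.94 and 9.64 with FA and 8.99, 8.65 and 8.56 untreated in SW480, against 11.29, 10.33 and 10.58 with FA and 11.19, 10.91 and 11.23 untreated in HT-29. Only the SW480 groups were apart, and the line difference was 1.26 ± 0.35 (unadjusted p = 0.00551).

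HMOX1, heme oxygenase, was the reverse case: 5.31, 5.62 and 5.45 with FA and 5.39, 5.18 and 5.02 untreated in SW480, against 8.15, 6.18 and 7.52 with FA and 9.02, 8.15 and 8.11 untreated in HT-29. Its groups overlapped in both lines, and most of its line difference of 1.41 ± 0.61 (unadjusted p = 0.0455) came from HT-29, at -1.14. It met the criteria in only 3 of the 12 fits that leave out 1 array, whereas SLC7A11 and GCLM did so in 12. A pair of noncoding NRF2-regulated transcripts that the list did not hold stood beside these genes: the pseudogene NMRAL2P at 1.48 ± 0.48 and the long noncoding RNA LUCAT1 at 1.70 ± 0.64. LUCAT1 read 7.82, 8.04 and 7.95 with FA and 7.58, 7.40 and 6.87 untreated in SW480, against 8.33, 6.41 and 7.68 with FA and 9.17, 8.02 and 8.38 untreated in HT-29.

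HT-29 FA replicate 2 was the lowest of its group for SLC7A11, GCLM, TXNRD1, HMOX1, NMRAL2P and LUCAT1. Over the whole NRF2 list it was the lowest in 19 of 32 genes (59.4%), against 27% of all clusters with a symbol. Without this array the line difference was 2.41 for SLC7A11, 1.17 for GCLM and LUCAT1, 1.14 for NMRAL2P and 0.86 for HMOX1, the last at an unadjusted p of 0.0581. Over the list, 19 of 32 genes were then above 0, with a median of 0.05 and 3 genes past the criteria. Leaving out untreated HT-29 replicate 3 gave 1.87 for GCLM, 1.20 for TXNRD1, 1.56 for HMOX1, 1.62 for NMRAL2P and 1.77 for LUCAT1.

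**Figure D2:**
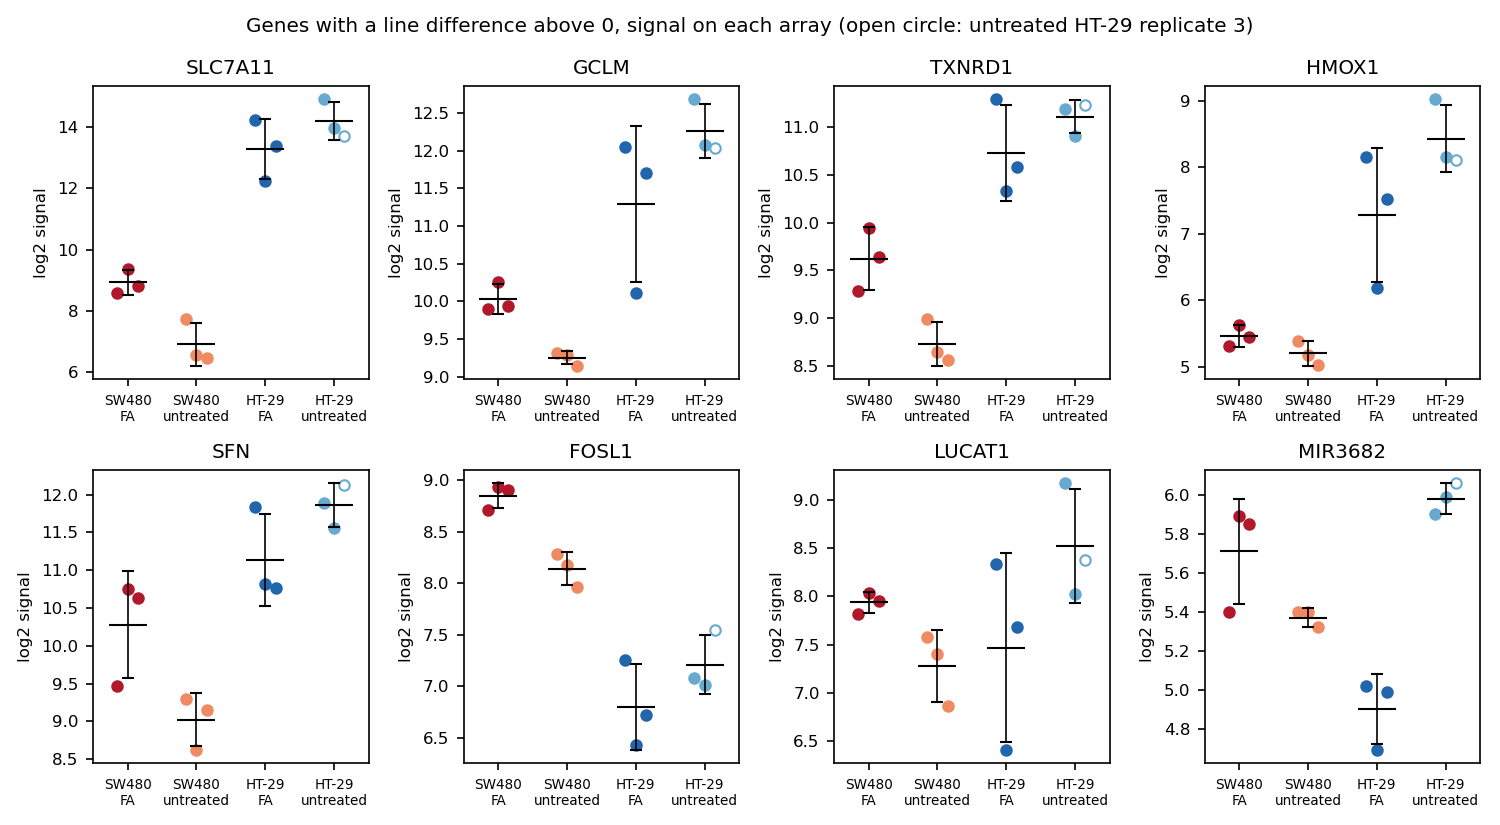
Log2 signal on each array (y axis) for 8 genes with a line difference above 0, in SW480 with FA, SW480 untreated, HT-29 with FA and HT-29 untreated; points are replicates, bars the group mean ± SD (n = 3), and the open circle is untreated HT-29 replicate 3. SLC7A11, GCLM, TXNRD1, SFN, FOSL1 and LUCAT1 are apart in SW480 with FA on top, while in HT-29 only MIR3682 is apart.

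The antioxidant response element core, TGACNNNGC in either orientation, was looked for in the 250 bases before the RefSeq transcript start of the NRF2 targets that met the criteria in either fit and of the pair of noncoding transcripts, because these genes had the same direction. They were SLC7A11, HMOX1, NMRAL2P, GSR, GCLM, TXNRD1, LUCAT1, GCLC and NQO1. Of the 5 matched to RefSeq windows (GRCh38.p14), GCLM and LUCAT1 held 1 match each and TXNRD1 1 at both of its starts, and GCLC and NQO1 held 0. Of all 35116 promoters, 10.9% hold such a match in this window, so a match is a description and says nothing of binding. The stretches around the match lie at chr1:93909431-93909509 (minus strand) for GCLM, chr5:91314403-91314501 (minus strand) for LUCAT1, and chr12:104286885-104286983 and chr12:104215635-104215733 (plus strand) for the 2 TXNRD1 starts. They are given 5′ to 3′ along the gene, with the match in capitals.
GCLM: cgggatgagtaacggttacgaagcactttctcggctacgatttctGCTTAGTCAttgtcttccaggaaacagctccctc
LUCAT1: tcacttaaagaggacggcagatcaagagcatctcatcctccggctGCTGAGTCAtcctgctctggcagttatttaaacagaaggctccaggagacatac
TXNRD1: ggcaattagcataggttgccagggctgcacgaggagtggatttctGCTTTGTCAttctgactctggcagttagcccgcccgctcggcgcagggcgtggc
TXNRD1, other start: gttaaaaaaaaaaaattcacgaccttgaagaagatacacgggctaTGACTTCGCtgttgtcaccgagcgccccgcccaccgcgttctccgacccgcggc

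Genes of amino acid supply that answer ATF4, the effector of the integrated stress response, were mostly above 0 as well. Of 36 genes 31 had a line difference above 0, with a median of 0.25 (0.02 over all clusters with a symbol), and 0.40 without untreated HT-29 replicate 3. HT-29 FA replicate 1 was the highest of its group in 30 of the 36 (83.3%, against 17.8% of all clusters with a symbol) and replicate 2 the lowest in 21 (58.3%, against 27%). Without replicate 1 the median was 0.47, with 9 genes past the criteria, and without replicate 2 it was 0.15, with 26 genes above 0. The 3 that met the criteria were SLC7A11, which is on both lists, DDIT3 and STC2. DDIT3, the stress-induced transcription factor CHOP, had a difference of 1.30 ± 0.46 (unadjusted p = 0.0179; 1.03 without untreated HT-29 replicate 3) from 0.59 in SW480 and -0.71 in HT-29. STC2, a secreted stanniocalcin, read 8.37, 8.62 and 8.89 with FA and 8.19, 7.72 and 7.80 untreated in SW480, and between 3.61 and 4.01 on all HT-29 arrays. Its line difference of 0.86 ± 0.22 (unadjusted p = 0.00342; 0.76 without that array) therefore rested on SW480, the line in which it had a signal.

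SFN encodes 14-3-3 sigma, an epithelial cell cycle inhibitor that p53 induces. It read 9.47, 10.75 and 10.63 with FA and 9.29, 8.62 and 9.15 untreated in SW480, against 11.84, 10.82 and 10.76 with FA and 11.89, 11.56 and 12.13 untreated in HT-29. The SW480 groups were apart, and in HT-29 replicate 1 of the FA group lay among the untreated arrays. For SFN the lines differed by 1.98 ± 0.55 (unadjusted p = 0.00514) and 1.85 ± 0.61 without untreated HT-29 replicate 3.

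Among 27 measured p53 targets, SFN was the 1 that met the criteria, and the list median was 0.11. Among the 7 genes of the 14-3-3 family it was again the 1, with a family median of -0.02. FOSL1, an AP-1 subunit induced by ERK signaling, had a line difference of 1.12 ± 0.30 (unadjusted p = 0.00374; 0.95 without untreated HT-29 replicate 3), with values of 8.71, 8.93 and 8.91 with FA and 8.28, 8.18 and 7.96 untreated in SW480, and of 7.25, 6.43 and 6.72 with FA and 7.08, 7.01 and 7.55 untreated in HT-29.

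MIR3682, a microRNA locus whose function is little known, had the smallest unadjusted p of all clusters with a symbol. It read 5.40, 5.89 and 5.85 with FA and 5.40, 5.40 and 5.32 untreated in SW480, against 5.02, 4.69 and 4.99 with FA and 5.90, 5.99 and 6.06 untreated in HT-29. The HT-29 groups were apart by more than their spread, while in SW480 the lowest FA value met the highest untreated one. Between the lines the effect differed by 1.42 ± 0.19 (unadjusted p = 2.56e-05, adjusted p = 0.576), and 1.32 to 1.58 when each array was left out in turn. The cluster reads the precursor locus, not the mature strands, which RefSeq (GRCh38.p14) places at chr2:53849136-53849156 and chr2:53849170-53849191 on the minus strand. They are shown with the seed (bases 2 to 8) in capitals and share no seed.
hsa-miR-3682-3p: uGAUGAUAcagguggagguag
hsa-miR-3682-5p: cUACUUCUaccuguguuaucau

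On the other side of 0, HES1 was the leading gene whose FA and untreated groups were apart in HT-29 alone. HES1 is the repressor through which Notch signaling holds intestinal progenitors off the secretory fate. It read 13.91, 13.77 and 14.26 with FA and 14.13, 14.11 and 14.45 untreated in SW480, against 11.90, 13.28 and 12.42 with FA and 10.21, 10.74 and 9.55 untreated in HT-29. All HT-29 FA values lay above all untreated ones, the SW480 groups overlapped, and HT-29 with FA stayed below SW480 in either condition. The line difference was -2.62 ± 0.52 (unadjusted p = 0.000545, adjusted p = 0.939), made of -0.25 in SW480 and 2.37 in HT-29, and -2.31 ± 0.49 without untreated HT-29 replicate 3. A further cluster that the study's supplement names HES1, without a symbol in the platform table, gave -3.26 ± 0.86.

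Of 33 measured genes of the Notch pathway and the HES family, 3 met the criteria, all lower, and the list median was 0.00. Beside HES1 they were NRARP and MAML2. NRARP, a Notch target that limits Notch signaling in turn, read 10.46, 10.57 and 10.84 with FA and 10.41, 10.89 and 11.32 untreated in SW480, against 7.62, 8.12 and 7.84 with FA and 7.14, 7.21 and 5.94 untreated in HT-29. As for HES1, only the HT-29 groups were apart, with a line difference of -1.35 ± 0.48 (unadjusted p = 0.0195) and of -0.94 ± 0.34 without untreated HT-29 replicate 3. MAML2, a coactivator of the Notch complex, was at -0.93 ± 0.35 (unadjusted p = 0.0251), with groups that overlapped in both lines.

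The 250 bases before the starts of these 3 genes were searched for GTGGGAA, the core bound by RBPJ, the DNA-binding partner of Notch, in both orientations. The match was found for HES1 at 85 to 79 bases before its start, in the window chr3:194136018-194136114 (GRCh38.p14, plus strand), and for neither NRARP nor MAML2. Of all promoters 5.43% hold it in this window. The HES1 sequence is shown because this gene carries the largest HT-29 effect among the leading clusters.
HES1: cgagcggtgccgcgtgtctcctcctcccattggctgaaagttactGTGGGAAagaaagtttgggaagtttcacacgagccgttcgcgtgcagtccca

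TNFSF10, the death ligand TRAIL, was the 1 leading cluster whose FA and untreated groups were apart in both lines, in opposite directions. It read 6.74, 6.60 and 6.74 with FA and 7.59, 8.41 and 7.91 untreated in SW480, against 6.15, 7.02 and 6.67 with FA and 5.72, 6.08 and 4.53 untreated in HT-29. In SW480 every FA array was below every untreated one, and in HT-29 every FA array was above. The line difference was -2.45 ± 0.54 (unadjusted p = 0.00118, adjusted p = 0.939), from -1.28 in SW480 and 1.17 in HT-29. Without untreated HT-29 replicate 3 the HT-29 effect was 0.71 and the difference -1.99 ± 0.39, with the groups still apart. A further cluster that the study's supplement gives as TNFSF10 had -3.20 ± 0.81, with HT-29 groups that overlapped.

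In the fit with every array, single-symbol clusters that met the criteria for FA in both lines numbered 2, TNFSF10 and BRD2. Neither the share of all clusters that did so nor the count in each line is given here. Whether 2 is a low number therefore cannot be judged. The BRD2 value, of a BET bromodomain gene, comes from a cluster placed on an alternative haplotype of the MHC region and ran the same way in both lines (0.78 in SW480 and 0.70 in HT-29, line difference 0.08 ± 0.37). Of the 16 measured genes of the TRAIL and death receptor list, TNFSF10 was the 1 that met the criteria, and the list median was 0.00.

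Interferon-stimulated genes shared the direction of TNFSF10, which interferon also induces. Of 37 measured, 32 had a line difference below 0, with a median of -0.29 and 5 past the criteria, all lower. Without untreated HT-29 replicate 3 they were 31, -0.13 and 1, so most of the size of this difference came with that array. The criteria were met by 10 without untreated HT-29 replicate 2 and by 1 without HT-29 FA replicate 2. The 1 without untreated replicate 3 was IFIT2, an antiviral RNA-binding protein, which read 3.78, 3.87 and 3.92 with FA and 4.21, 4.20 and 4.37 untreated in SW480, against 6.41, 6.80 and 6.53 with FA and 6.28, 6.39 and 6.22 untreated in HT-29. Its groups were apart in opposite directions in the lines, with a line difference of -0.69 ± 0.14 (unadjusted p = 0.000849) and of -0.65 ± 0.15 without that array. Its SW480 values, 3.78 to 4.37, each lay below the median of their own array. IFITM3, which restricts viral entry, was at -1.38 with 12 arrays and at -0.91 without the array (unadjusted p = 0.045 and 0.0908).

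CCL2, the chemokine that attracts monocytes, was the 1 protein-coding leading cluster below 0 whose groups were apart in SW480 alone. It read 9.45, 9.02 and 9.60 with FA and 10.79, 11.97 and 12.01 untreated in SW480, whereas HT-29 read 3.82, 3.71 and 3.71 with FA and 3.71 on all untreated arrays. In SW480 the FA group lay wholly below the untreated group. The line difference was -2.27 ± 0.40 (unadjusted p = 0.000261, adjusted p = 0.939), and it was the same without untreated HT-29 replicate 3. The HT-29 values were nearly constant and below the median of every array, so these arrays hold no signal in which an effect of FA on CCL2 in HT-29 could be read.

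CCL20, a chemokine that attracts T cells and dendritic cells, had the same shape at a smaller size: 6.27, 6.10 and 6.51 with FA and 6.69, 7.03 and 6.99 untreated in SW480, and 4.41 to 4.45 on all HT-29 arrays (line difference -0.62 ± 0.16, unadjusted p = 0.00306; -0.63 without untreated HT-29 replicate 3). Of 27 measured chemokines and cytokines, 19 were below 0 with a median of -0.09, and CCL2 and CCL20 were the 2 past the criteria. Of 23 NF-kB subunits and targets, 14 were below 0 with a median of -0.04, and the 2 past the criteria were CCL2 and TNFAIP2 (-1.26 with 12 arrays and -0.84 without the array, unadjusted p = 0.0484 and 0.104).

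A pair of clusters annotated to more than 1 gene, SAA1 with RNA5SP334 and SAA2 with RNA5SP333, followed CCL2. The SAA genes encode acute phase apolipoproteins and the other symbols are 5S rRNA pseudogenes, so the values are not assigned to either. The SAA2 cluster read 7.45, 6.88 and 7.35 with FA and 8.82, 9.09 and 9.44 untreated in SW480, against 4.05, 4.05 and 4.19 with FA and 4.15, 4.15 and 4.48 untreated in HT-29. Its FA effect in SW480 was the 1 called (-1.89 ± 0.18, adjusted p = 0.0404), and its line difference was -1.73 ± 0.26 (unadjusted p = 7.29e-05; -1.84 without untreated HT-29 replicate 3). The SAA1 cluster had -1.76 ± 0.28 (-1.88 without that array). Of the 16 acute phase genes with a cluster of their own, 0 met the criteria.

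**Figure D3:**
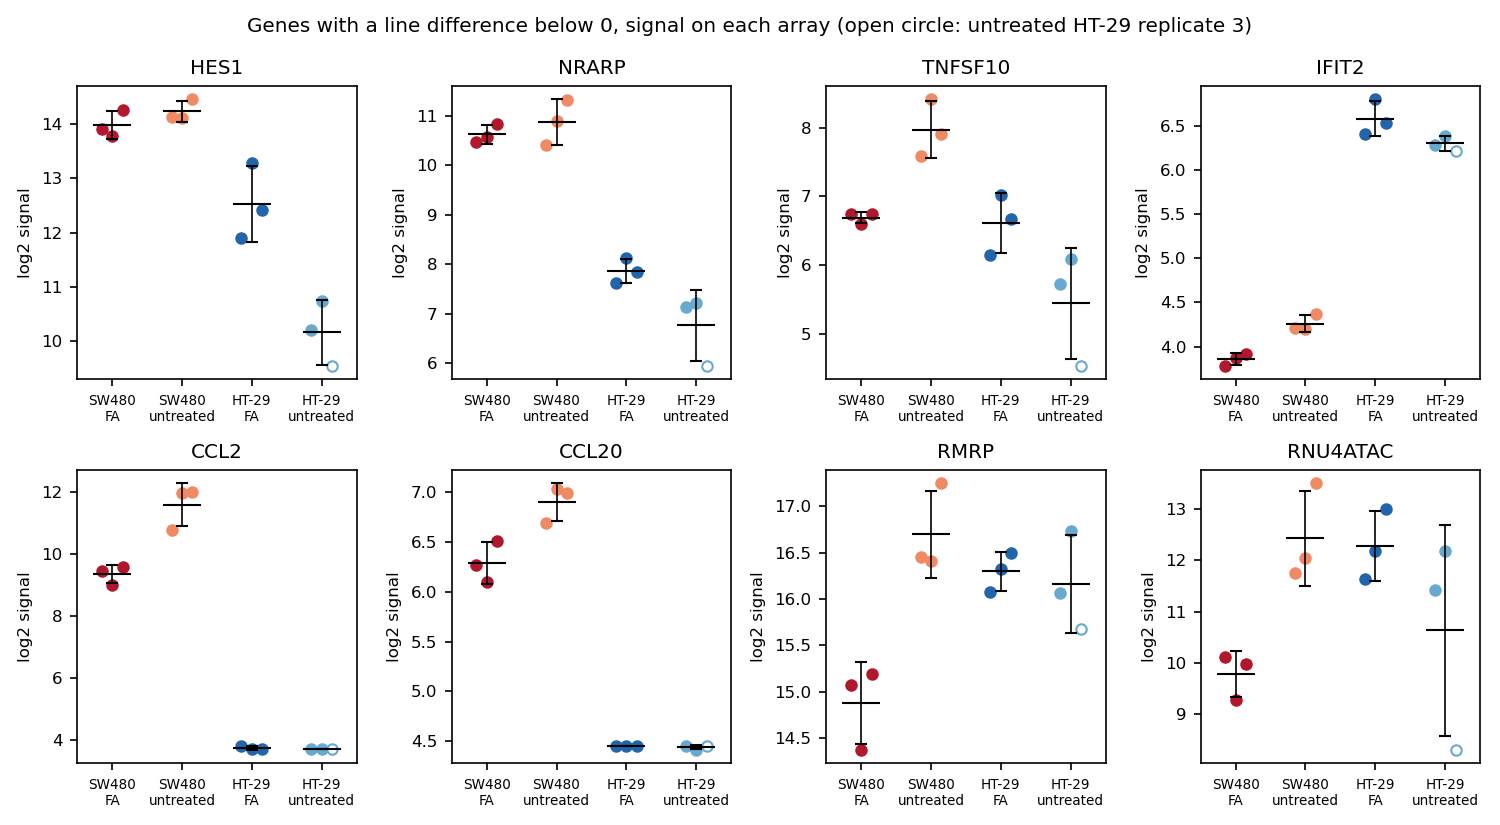
Log2 signal on each array (y axis) for 8 genes with a line difference below 0, in SW480 with FA, SW480 untreated, HT-29 with FA and HT-29 untreated; points are replicates, bars the group mean ± SD (n = 3), and the open circle is untreated HT-29 replicate 3. HES1 and NRARP are apart in HT-29 only, CCL2, CCL20, RMRP and RNU4ATAC in SW480 only, and TNFSF10 and IFIT2 in both lines in opposite directions.

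The largest differences in size belonged to small noncoding RNAs of splicing, ribosome making and transcription, which are read here as loci and are often present in many near-identical copies. Of 27 measured, 23 had a line difference below 0, with a median of -0.96. The criteria were met by 12 on the lower and 1, the cluster with the symbol RNY5, on the higher side, beside 0.637% and 0.889% of all clusters. This list holds genes that the study had named from these same arrays, among them RNU4ATAC, SNORA38B, SNORA71A, SNORD82 and RPPH1. Its counts and median are therefore descriptions and no independent result about this class of RNA. Without untreated HT-29 replicate 3 the median was -0.64, with 24 below 0, 10 lower and 1 higher past the criteria. The list median effect was -0.58 in SW480 and 0.14 in HT-29, and 0.00 in HT-29 without that array, so its larger part lay on the SW480 side.

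RMRP, the RNA of the RNase MRP that cuts ribosomal RNA precursors, read 15.07, 14.37 and 15.19 with FA and 16.45, 16.41 and 17.25 untreated in SW480, against 16.08, 16.32 and 16.50 with FA and 16.07, 16.73 and 15.68 untreated in HT-29. The SW480 groups were apart and the HT-29 groups overlapped. Its line difference was -1.97 ± 0.46 (unadjusted p = 0.00178) and -1.73 ± 0.46 without untreated HT-29 replicate 3.

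RNU4ATAC, the U4atac RNA of the minor spliceosome, had the largest line difference of all leading clusters, -4.26 ± 1.27 (unadjusted p = 0.00761), but also the widest error. It read 10.11, 9.28 and 9.99 with FA and 11.75, 12.03 and 13.49 untreated in SW480, against 11.63, 12.18 and 12.99 with FA and 11.42, 12.18 and 8.31 untreated in HT-29. The low value of 8.31 is untreated HT-29 replicate 3. Without that array the HT-29 effect was 0.47 in place of 1.63 and the line difference -3.10 ± 0.79.

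Of the small nucleolar and Cajal body RNAs, which guide the modification of other RNAs, 7 were among the leading 12 below 0, namely SNORA38B, SNORD71, SCARNA12, SNORD99, SNORA48, SNORA49 and SNORA71A, with differences between -2.25 and -3.18. In the 11-array fit SNORA38B was at -1.90 and SCARNA12 at -1.60, and these met the criteria in 6 and 9 of the 12 fits that leave out 1 array, whereas the other 5 did so in 12. They shared 2 features: the SW480 FA arrays lay below all untreated SW480 arrays, and the HT-29 groups overlapped. The choice of clusters with a large difference favours such a separation, which 1747 of the 25324 clusters with a symbol had in SW480 in either direction. How many of all clusters had it is not given here. Untreated SW480 replicate 3 was the highest of its group in 17 of the 27 list members (63%, against 22.2% of all clusters with a symbol), and without it SNORD71 was at -2.08, SNORA49 at -1.56 and SNORA48 at -1.89. SW480 FA replicate 2 was the lowest of its group in 18 of the 27 (66.7%). The list median was -0.92 without untreated SW480 replicate 3, with 10 lower past the criteria, and -0.79 without SW480 FA replicate 2, with 8.

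The 7SK RNA (RN7SK), which holds the transcription elongation factor P-TEFb inactive, read 18.78, 18.43 and 19.08 with FA and 19.54, 19.47 and 19.61 untreated in SW480. In HT-29 it read 19.93 on all FA arrays and 19.93, 19.93 and 19.39 untreated. Since 19.93 is the highest value of the whole table, HT-29 has only a bound, and the line difference of -0.96 ± 0.25 (unadjusted p = 0.00342) is not a measure of an HT-29 effect. RNU4-2 and RNU4-1, U4 RNAs of the major spliceosome, were at -1.40 and -0.97 (-0.97 and -0.64 without untreated HT-29 replicate 3), and the scaffold RNA RN7SL1 of the signal recognition particle at -0.56 (unadjusted p = 0.128).

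A pair of leading symbols do not stand for their gene. A cluster of chromosome 12 carries the symbol RNY5 (difference 2.26 ± 0.73), while the RNY5 gene lies on chromosome 7, and the cluster on chromosome 7 with that symbol had 0.09 ± 0.39. In the same way the MIR548T cluster with 1.70 ± 0.63 is on chromosome 7 and the gene on chromosome 4, where its cluster had 0.53 ± 0.69. Such a mismatch of chromosomes was found for 67 of the 23781 single-symbol clusters. The remaining leading clusters above 0 were the 5S pseudogene RNA5SP471 (1.79 ± 0.62, and 1.22 ± 0.38 without untreated HT-29 replicate 3), SNORA53 (1.41 ± 0.40) and ASAP1-IT1 (1.66 ± 0.74), which met the criteria in only 3 of the 12 fits that leave out 1 array.

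**Figure D4:**
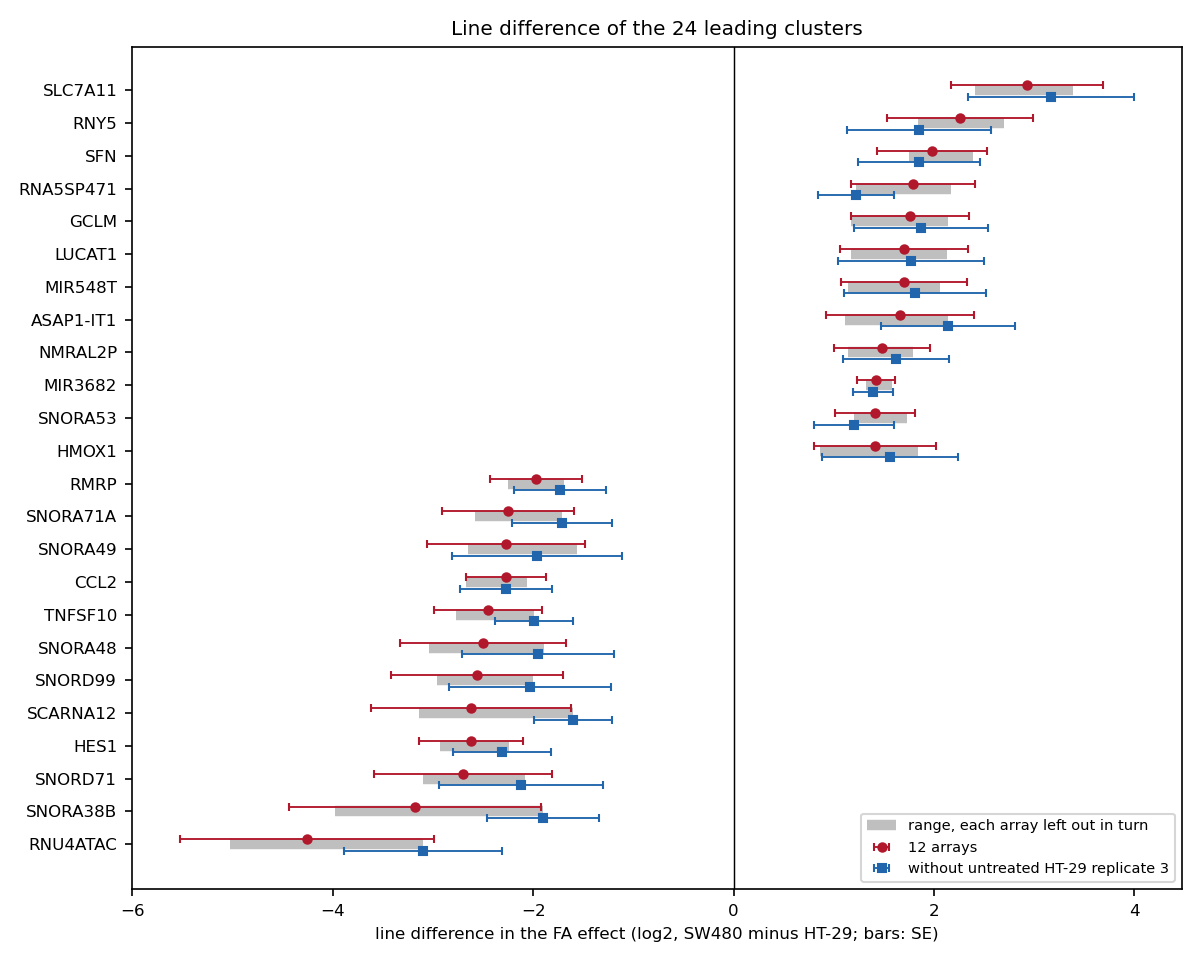
Line difference in the FA effect (x axis, log2, SW480 minus HT-29) of the 24 leading clusters (rows), with 12 arrays (red circles) and without untreated HT-29 replicate 3 (blue squares), bars showing the SE and grey bands the range over 12 fits that each leave out 1 array. Removing that array takes RNU4ATAC to -3.10 and SNORA38B to -1.90, while CCL2 stays at -2.27 and MIR3682 at 1.39.

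By kind of gene, as the reference annotation gives it, the criteria in both fits were met by 28 protein-coding clusters on the higher and 34 on the lower side of 18109 (0.342%). For small nucleolar RNAs these were 3 and 10 of 261 (4.98%), and for small nuclear RNAs 0 and 5 of 25 (20%), beside 0.894% of all clusters. The 5 include RNU4ATAC and RN7SK, already described above. The median line difference of the small nucleolar and small nuclear RNAs was 0.03 and -0.17, and -0.09 and -0.17 without untreated HT-29 replicate 3. MicroRNA loci had 11 on the higher and 2 on the lower side of 1087 (1.2%), and pseudogenes 5 and 14 of 938 (2.03%). This grouping was chosen after the values were seen.

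Replication-dependent histone genes, which package newly made DNA, had 17 of 21 members below 0 and a median of -0.41, which was -0.15 without untreated HT-29 replicate 3. H4C3 was the 1 past the criteria in both fits (-1.60 ± 0.61 with 12 arrays and -1.01 ± 0.31 without the array), with 11.05, 10.40 and 10.58 with FA and 11.37, 11.98 and 11.95 untreated in SW480, against 12.91, 13.13 and 13.22 with FA and 13.06, 13.27 and 11.39 untreated in HT-29. Clusters that carry the symbols of many H4 genes at once gave -2.12 ± 0.61, -1.54 ± 0.42 and -1.32 ± 0.56 (-1.62, -1.17 and -0.79 without the array), and cannot be assigned to 1 of these near-identical copies. The linker histone gene H1-4 was at -1.67 with 12 arrays and at -0.59 without the array (unadjusted p = 0.144 and 0.172).

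CDH1, the E-cadherin of epithelial junctions, was the 1 of 47 intestinal differentiation and epithelial genes past the criteria. It read 7.89, 7.37 and 7.87 with FA and 8.11, 8.04 and 8.48 untreated in SW480, against 13.32, 13.77 and 13.32 with FA and 12.90, 13.32 and 11.61 untreated in HT-29. The SW480 groups were apart by little, and the line difference was -1.36 ± 0.53 (unadjusted p = 0.0294) and -0.86 ± 0.31 without untreated HT-29 replicate 3. Mesenchymal and matrix genes had no common direction (21 above and 14 below 0 of 35, median 0.11, and 0.01 without the array). With 12 arrays SNAI2, a transcription factor of the mesenchymal transition, met the criteria on the higher side (0.65, and 0.50 without the array), and CCN2, a matrix growth factor, and MMP7, a matrix protease, on the lower side (-0.60 and -0.68, and -0.39 and -0.48 without the array). None of the 3 reached 1.5-fold without it, while 1 other gene of the list then met the criteria on the higher side.

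Genes that handle folate itself differed little between the lines. Of 31 measured genes of folate uptake and one-carbon enzymes, 21 were below 0 with a median of -0.05, and -0.03 without untreated HT-29 replicate 3. Only ABCG2, an exporter of folates and drugs, met the criteria with 12 arrays (-0.86 ± 0.36, unadjusted p = 0.0386), and it no longer reached 1.5-fold without that array (-0.52 ± 0.18). The folate receptor FOLR1 was at -0.36, the carrier SLC19A1 at 0.04, thymidylate synthase TYMS at 0.10 (0.24 without the array) and the mitochondrial enzyme MTHFD2, itself an ATF4 target, at 0.56 (unadjusted p = 0.194). No gene met the criteria among 27 of the methionine cycle and DNA methylation (median 0.00), 24 of nucleotide synthesis (-0.07, and 0.00 without the array) and 39 of DNA replication (-0.09, with 26 below 0, and 0.06 with 9 below 0 without the array).

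Several list medians were set by untreated HT-29 replicate 3. Of 37 genes of mitosis 33 were below 0 with a median of -0.31 over 12 arrays, and 17 with a median of 0.01 without it. Cytosolic ribosomal proteins had a median of -0.11, and 0.01 without it, and Wnt feedback genes and targets -0.28 and -0.11. The signal level moved with it: the median line difference was 0.08 in clusters with a mean log2 signal below 4 and -0.27 in those above 10, and -0.04 and 0.02 without that array. Glucose response and glycolysis genes went the other way, with a median of 0.05 that was 0.24 without it.

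**Figure D5:**
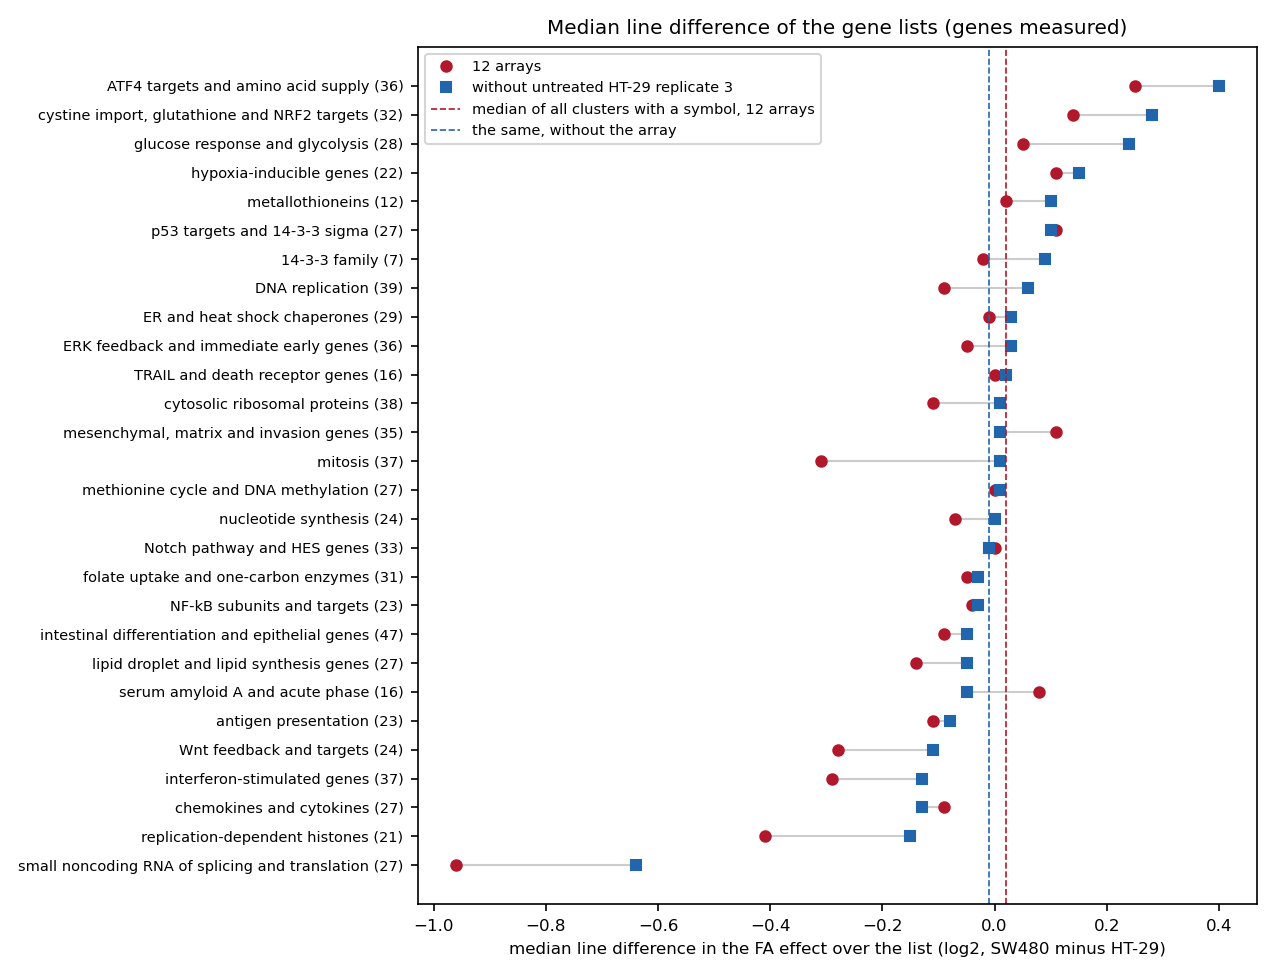
Median line difference in the FA effect (x axis, log2, SW480 minus HT-29) of 28 gene lists (rows, with the number of genes measured), with 12 arrays (red) and without untreated HT-29 replicate 3 (blue); dashed lines are the medians of all clusters with a symbol. Small noncoding RNA, a list that holds genes the study had named, stays far below 0 in both fits (-0.96 and -0.64). The ATF4 list stays above (0.25 and 0.40), whereas mitosis shifts from -0.31 to 0.01.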

How the data were processed

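HT-29 and SW480 RNA was hybridised to 12 Human Transcriptome Arrays, 1 per sample. Per the submitters' processing notes, the authors normalized the scans by RMA (its signal-space form, per the methods) in the Transcriptome Analysis Console 4.0 and deposited log2 signals per transcript cluster. Scanner files were not analysed here, and the number of arrays limits the precision. The genome build behind the array annotation is not given in the sources used here.

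Symbols came from the platform table: 23781 clusters had 1 symbol, 1543 several and 42204 none. The deposited log2 values of all 67528 clusters were fitted on the 4 group means with limma 3.58.1 (R 4.3.3; lmFit and eBayes), and p-values were adjusted by the Benjamini-Hochberg method over all clusters. A call was an adjusted p under 0.05. Clusters past the study's criteria (1.5-fold or more, with unadjusted p up to 0.05) were also counted. All 12 columns were used, 0 were left unused, and the fit was checked on simulated data.

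Named genes were the 12 clusters with 1 symbol and the largest line difference in each direction among those past the criteria in both fits, up to 3 genes per list, genes past the criteria in both lines, and genes the study named, with their other clusters. Further list members were named after their values were seen. In a list, a gene was read by its single-symbol cluster of highest mean signal. The members and lists were chosen with earlier results of these data known. Alternatives were each array left out, a replicate block, median centring, a second quantile normalization, array weights, a variance trend, separate variances per line, a filter on low clusters, clusters with a symbol alone and a 2-fold minimum; 3 alternatives of the 11-array fit, and 4 list medians with each array left out, were added after seeing the data. Figures used matplotlib 3.10.9 in Python 3.11.15.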

Additional observations from a re-analysis of the deposited data

Results flagged for a closer look

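In 12 named genes the FA arrays lay wholly outside the untreated arrays in opposite directions in SW480 and HT-29, at an unadjusted p under 0.05 for the line difference. None passed the adjustment over all clusters (adjusted p = 0.939), and 0.173% of all clusters showed the opposite pattern. TNFSF10, the TRAIL ligand, had a line difference of -2.45 (unadjusted p = 0.00118) and IFIT2, an interferon-induced RNA-binding protein, had -0.69 (unadjusted p = 0.000849). FAM210B, a mitochondrial protein, had -0.26 (unadjusted p = 0.0222), while a further cluster given as FAM210B in the study's supplement alone had -2.43 ± 1.08. IL6R, the interleukin 6 receptor, had 0.39 (unadjusted p = 0.0348).

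The remaining 8 were named after their values were seen, from the single-symbol clusters that also met the criteria in both fits. Below 0 were the U4 RNA RNU4-2 at -1.40, NCMAP-DT at -1.03, the pseudogene RNU6ATAC2P at -0.96, the protocadherin PCDHGA10 at -0.73 and SUCLG2, a subunit of succinyl-CoA ligase, at -0.73. Above 0 were TRPC7-AS2 at 0.80, the golgin GOLGA8A at 0.99 and the pseudogene CHORDC1P4 at 1.19. Causes were not tested.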

How the results depend on the processing

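The 24 leading clusters kept their direction under all alternatives run: of 456 comparisons 419 stayed past the criteria and 37 did not. They were chosen as past the criteria with 12 arrays and without untreated HT-29 replicate 3. That alternative was therefore met through the choice, and the others reuse most of the same arrays, so these counts are no independent check. Of all 201 named clusters, 29 changed sign under at least 1 alternative, 16 of them without untreated HT-29 replicate 3, and 0 of the 29 met the criteria with 12 arrays. Leaving out 1 array at a time gave 155 to 752 clusters with a symbol past the criteria (155 without SW480 FA replicate 2 and 752 without untreated HT-29 replicate 2, against 287) and 0 to 1 called. Array weights gave 674 past the criteria and 12 called (0.0578% of all clusters), and a 2-fold minimum gave 119. For the FA effect in SW480, 0 to 4 clusters were called when 1 array was left out, and 3 without untreated HT-29 replicate 3, against 1. Same-numbered samples did not generally deviate together (correlations -0.34 to 0.50, against -0.48 to 0.43 for other numbers). The highest value, 0.50, was that of SW480 replicate 3 with FA and untreated. Of the 12 arrays, 1 was closest to its own number, and the replicate block gave 283 clusters past the criteria and 0 called. The causes were not tested. Signals near the bottom of the scale, as CCL2 in HT-29, and at its top, as RN7SK in HT-29, limit what a line difference can show.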
